A study of Rattus norvegicus with 6 samples.

Results

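Bdnf encodes brain-derived neurotrophic factor, a secreted growth factor, and Ntrk2 encodes TrkB, the receptor tyrosine kinase that binds it. Both were read from a table of 32402 rat gene identifiers as the rows ENSRNOG00000047466 (Bdnf) and ENSRNOG00000018839 (Ntrk2), so the members are 2 genes of 32402. These 2 identifiers were given with their gene names when the pair was selected. The rule that picks the rows uses no measured value, although the pair was proposed with earlier results of these data known. The table itself lists identifiers without symbols, so the pairing was not checked against a second source. Both genes passed the filter on low counts, as did 16344 genes in all.

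RNA was sequenced from the hypothalamic paraventricular nucleus of male rats of the Holtzman stock. In the furosemide group, 9 rats received 10 mg/kg of furosemide, a loop diuretic that causes loss of sodium in the urine, followed by low-sodium food and distilled water for 24 h. In the control group there were also 9 rats, and what they were injected with, fed and given to drink is not stated in the labels. Each library was a pool of 3 rats, which left 3 libraries per group, so a value describes the average of a pool and not a rat. The labels give neither the rats' ages nor any date. The labelled tissue was not checked against marker genes, since the table was not paired with symbols.

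BDNF is made as a precursor, proBDNF, which is cleaved to the mature factor and released from neurons, partly in response to their activity. Mature BDNF binds TrkB, which then signals through the MAP kinase, PI3 kinase and phospholipase C gamma pathways, while proBDNF binds the receptor p75NTR together with sortilin. The Ntrk2 gene also gives rise to a truncated TrkB without the kinase domain, which astrocytes make in quantity. In the hypothalamus BDNF takes part in the control of food intake, of the stress axis and of blood pressure, and in vasopressin neurons under chronic salt loading it has been tied to the loss of inhibition by GABA. The Bdnf gene has several alternative promoters, each of which joins its own first exon to a shared coding exon.

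A read count per gene adds up the transcripts that the annotation assigns to it, so the promoters are shown here to say what the Bdnf row may combine. The RefSeq promoter windows of the rat build GRCr8 run from 250 bases before a transcript start to 50 after it, and 1 of the 2 symbols, Bdnf, was matched to them. Bdnf had 6 windows, all on the plus strand of chromosome 3, where the median gene of the 27457 in the set had 1. As many windows or more were listed for 207 genes (0.754%). The 6 starts spanned 20225 bases, with the first 3 within 2338 bases, the fourth 18225 bases from the first, and the last pair 56 bases apart. The windows are numbered here by position and not by exon.

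Each window was searched on both strands for the cAMP response element TGACGTCA, which the activity-regulated factor CREB binds, for its core CGTCA and for the E-box CACGTG, which USF and other basic helix-loop-helix factors bind. The core lies within the full element, and the matches found did not overlap. The full element was in none of the 6 Bdnf windows (0) and in 1.83% of all 33469 windows. Its core was in 1 Bdnf window, the fourth, 35 bases before the start, and in 21.2% of all windows. The E-box was in 1 Bdnf window, the second, 19 bases after the start, and in 6.42% of all windows. These matches describe letters in a window and not sites shown to be bound. The 2 windows with a match are printed below 5′ to 3′ with the matched letters in capitals.
Bdnf window 2, chr3:116620585-116620884, plus strand: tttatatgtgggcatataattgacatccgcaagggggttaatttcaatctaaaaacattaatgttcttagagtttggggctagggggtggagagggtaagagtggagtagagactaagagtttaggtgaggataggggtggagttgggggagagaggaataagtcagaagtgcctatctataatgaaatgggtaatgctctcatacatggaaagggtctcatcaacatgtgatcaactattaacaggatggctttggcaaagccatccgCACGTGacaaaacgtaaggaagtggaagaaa
Bdnf window 4, chr3:116637608-116637907, plus strand: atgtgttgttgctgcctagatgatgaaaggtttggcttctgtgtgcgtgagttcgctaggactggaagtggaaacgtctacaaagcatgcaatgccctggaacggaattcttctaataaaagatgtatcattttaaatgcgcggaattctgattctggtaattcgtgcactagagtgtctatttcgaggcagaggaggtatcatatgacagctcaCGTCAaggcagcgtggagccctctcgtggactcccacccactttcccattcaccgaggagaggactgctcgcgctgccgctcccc
The table has 1 row for Bdnf, and which of the 6 transcript starts the annotation behind that row includes is not given. A shift between promoters counted in it that left their sum unchanged would not be seen in the values that follow.

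Bdnf, the ligand, did not pass the test between furosemide and control rats, and its difference lay within the spread of the pools. Its level is given as CPM, counts per 1000000 reads of a library total scaled by TMM factors. The control libraries 1, 2 and 3 held 201, 261 and 225 Bdnf reads, or 9.32, 12.1 and 10.8 CPM. The furosemide libraries 1, 2 and 3 held 221, 231 and 232 reads, or 9.84, 10.6 and 10.4 CPM. All 3 furosemide values fell between the lowest and the highest control, so the groups overlapped fully. Control pools averaged 10.7 ± 1.38 CPM and furosemide pools 10.3 ± 0.373 CPM (SD, n = 3 each). The log2 fold change of furosemide over control was -0.07 with a standard error of 0.10 (edgeR quasi-likelihood test, unadjusted p = 0.523, adjusted p = 0.910). As a percentage, the difference was -4.51%, with a 95% interval from -17.9% to 11.1%. Its sign rested on 1 library: without control 2, the highest of the 6, the log2 fold change was 0.03 with an edgeR adjusted p of 0.983, and without control 1, the lowest, it was -0.16 with an edgeR adjusted p of 0.693.

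Ntrk2, the receptor, did not pass the test either, at a far higher read count and with a narrower interval. The control libraries 1, 2 and 3 held 23894, 24522 and 24361 Ntrk2 reads, or 1108, 1135 and 1173 CPM. The furosemide libraries 1, 2 and 3 held 27231, 25596 and 25458 reads, or 1212, 1169 and 1139 CPM. Furosemide 1 was the highest of the 6 libraries and control 1 the lowest, while the other 4 interleaved, since control 3 stood above furosemide 2 and furosemide 3. Control pools averaged 1138 ± 32.7 CPM and furosemide pools 1174 ± 36.7 CPM (SD, n = 3 each). The log2 fold change of furosemide over control was 0.04 with a standard error of 0.04 (edgeR quasi-likelihood test, unadjusted p = 0.234, adjusted p = 0.807). As a percentage, the difference was 3.10%, with a 95% interval from -2.19% to 8.69%. Leaving out 1 library at a time kept the log2 fold change of Ntrk2 between 0.02, without furosemide 1, and 0.07, without control 3.

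**Figure D1:**
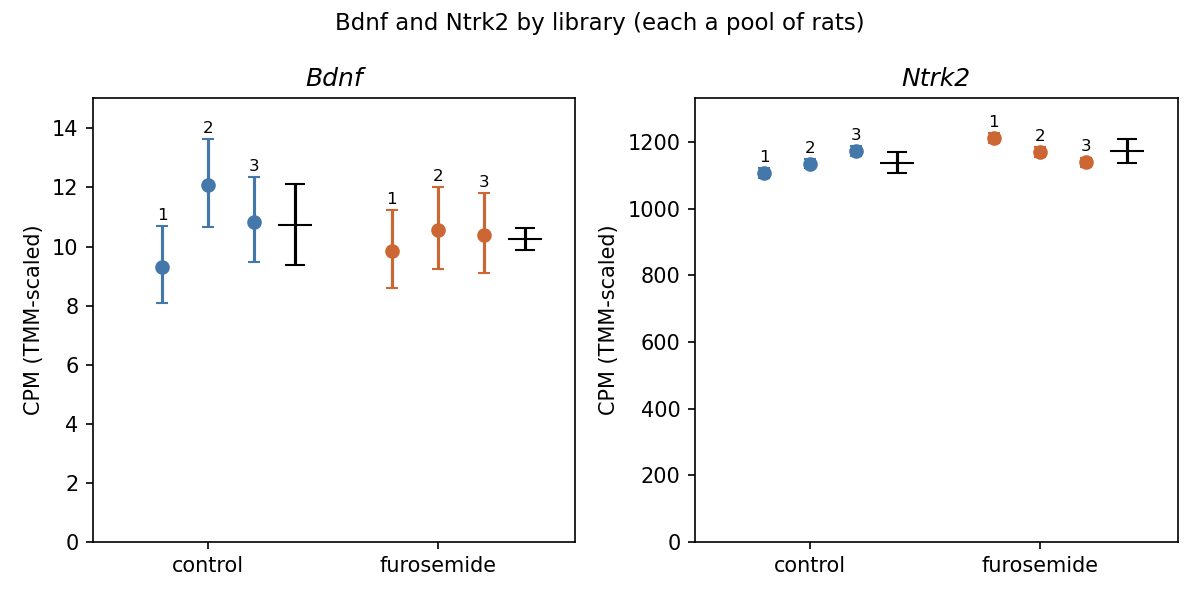
Bdnf (left) and Ntrk2 (right) in CPM for each library, numbered by replicate. Points carry exact 95% counting intervals of the library's share of reads, and the black bar at the right of each group is the mean with its SD over 3 libraries. For Bdnf the furosemide points lie within the range of the controls, from 9.32 to 12.1 CPM, and for Ntrk2 the groups overlap between 1139 and 1173 CPM.

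The background of the same test was also empty at the adjusted threshold of 0.05, with 0 of 16344 genes called (0%). An unadjusted p under 0.05 was reached by 1322 genes (8.09%), and neither Bdnf nor Ntrk2 was among them. The libraries of the groups did not overlap for 2208 genes (13.5%), and for both members they did. The exact test of edgeR, with the filter kept at 16344 genes, called 45. DESeq2 was given 22994 genes without that filter, and its own default filtering by mean count before adjustment was left on. With this other tool and other gene set, it called 40. Neither member was in either list. Of the genes tested, 57.5% had a smaller p than Bdnf and 29.0% a smaller p than Ntrk2. The size of the log2 fold change was larger than that of Bdnf in 46.1% of genes and larger than that of Ntrk2 in 61.1%, where the median size over all genes tested was 0.06. In bulk tissue, fewer cells of a type and less RNA per cell cannot be told apart, and opposite changes in different cells of the pool would cancel.

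**Figure D2:**
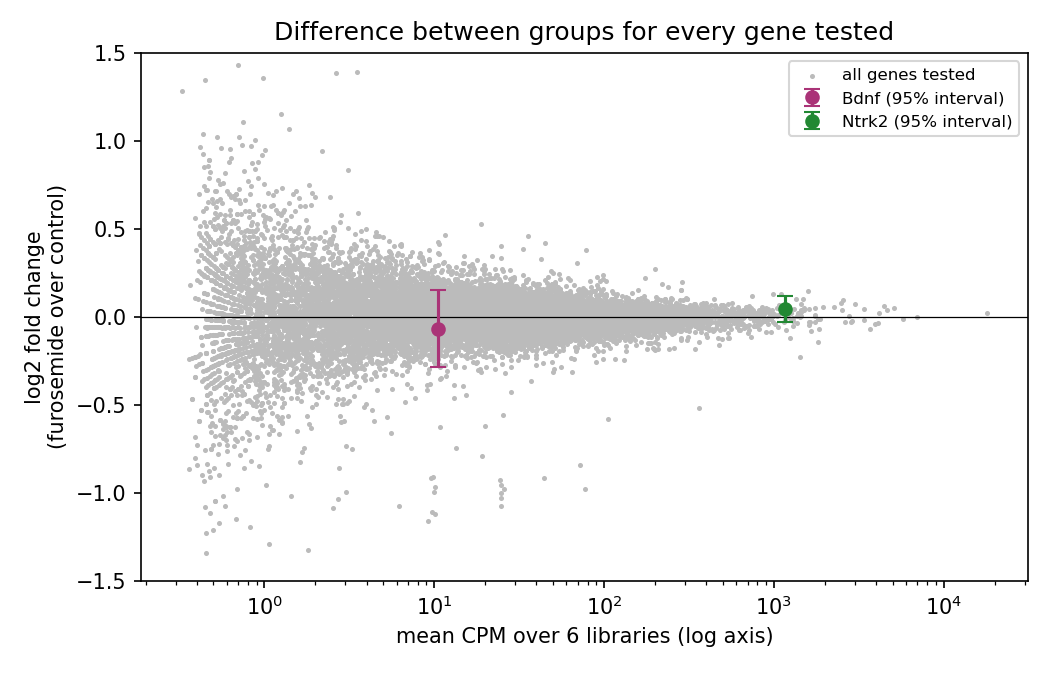
Log2 fold change of furosemide over control (y axis) against mean CPM over the 6 libraries (x axis, log scale) for the 16344 genes tested, with Bdnf and Ntrk2 marked with their 95% intervals. Both intervals cross 0, and 2 genes lie beyond the plotted range of 1.5 in either direction.

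The precision behind these values differed between the genes. With 201 to 261 reads per library, counting error alone gives a Bdnf value a coefficient of variation of about 6.62%. The observed coefficient of variation was 12.9% among the control pools, above counting error, and 3.64% among the furosemide pools, below it. Each of these values rests on only 3 libraries, and whether the groups differ in spread was not tested. The exact 95% binomial interval of the Bdnf share, in CPM without TMM scaling, ran from 8.12 to 10.8 in control 1, the lowest library, and from 10.6 to 13.6 in control 2, the highest. These intervals cover counting error only, and they overlapped at their ends. For Ntrk2, with 23894 to 27231 reads per library, counting error is 0.630%, and the coefficients of variation of 2.88% in controls and 3.13% after furosemide were several times larger.

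The biological coefficient of variation, which edgeR estimates for each gene after sharing information between genes, was 6.95% for Bdnf and 3.34% for Ntrk2. It leaves out counting error, which the coefficients of variation of the pools given above include. The trend at the same read level was 6.96% and 3.55%, towards which such estimates are drawn, and both genes lay just under it. Over all genes tested the median was 5.19%. By mean CPM, which is not divided by transcript length, Ntrk2 ranked 66 of 16344 genes and Bdnf 10506. Ntrk2 RNA was therefore among the most sequenced in this tissue, while Bdnf stood above 35.7% of the genes tested.

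**Figure D3:**
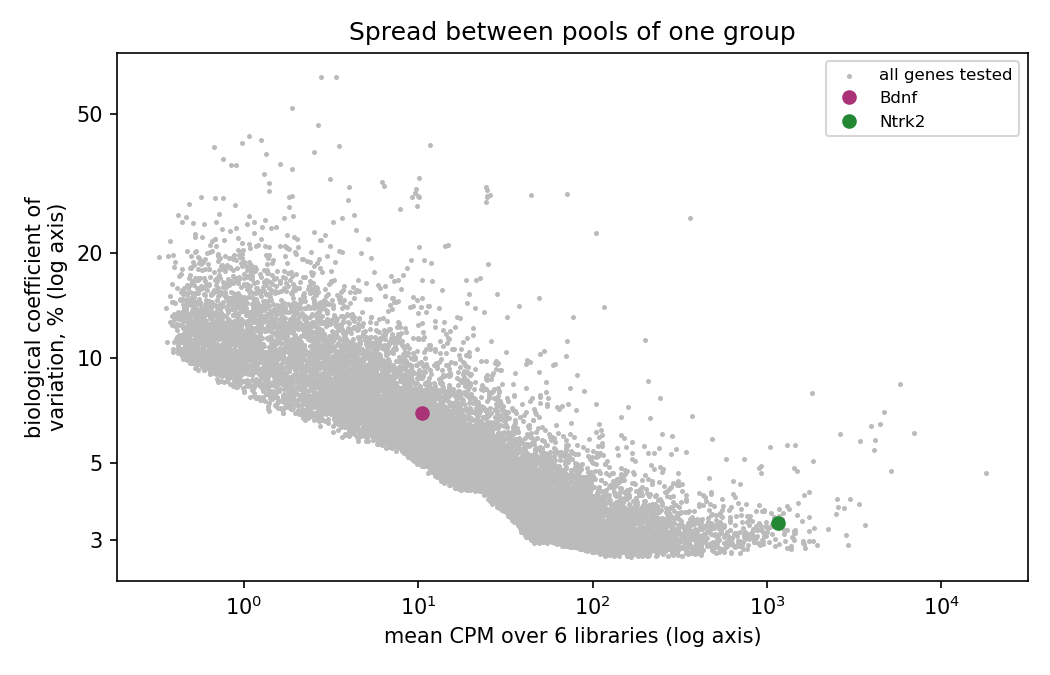
Biological coefficient of variation in percent (y axis, log scale) against mean CPM over the 6 libraries (x axis, log scale) for the genes tested, with Bdnf at 6.95% and Ntrk2 at 3.34%. Both points lie within the band of genes of their level.

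The ratio of Ntrk2 to Bdnf reads within a library sets receptor against ligand without any scaling for library size. It is a ratio of reads and not of molecules, because the transcripts differ in length. Length cancels between groups only if each gene's mix of transcripts is the same in both, which was not tested. The Ntrk2 count does not separate full-length from truncated TrkB, so its reads are not those of the kinase-bearing receptor alone. The ratio was 119, 94.0 and 108 in control libraries 1, 2 and 3. After furosemide it was 123, 111 and 110. The highest value was that of furosemide 1 and the lowest that of control 2, and control 1 stood above furosemide 2 and 3. It averaged 107 ± 12.5 over the control libraries and 115 ± 7.49 over the furosemide libraries (SD, n = 3 each). The mean log2 ratio, with 0.5 added to each count, was 0.10 higher after furosemide, a 1.07-fold difference, with p = 0.4 in a two-sided exact permutation test, which cannot go below 0.1 for 3 libraries against 3. Without control 2 the difference in log2 ratio was 0.01, against 0.18 without control 1.

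No common variation of ligand and receptor from pool to pool was detected. The small number of libraries and the counting error of about 6.62% in each Bdnf value limit what could be detected. Over the 6 libraries, Pearson's r between the log2 CPM of Bdnf and of Ntrk2 was 0.01 (two-sided exact permutation p = 0.969) and Spearman's rho was 0.09 (two-sided exact permutation p = 0.919). Over these 2 coefficients the Benjamini-Hochberg adjusted value was 0.969 for each. Without control 1 and control 2, the libraries farthest from the Bdnf median, r was -0.59 over the 4 that remained. With the group means removed, r over the 6 libraries was 0.17. Control 2, the highest library for Bdnf at 12.1 CPM, was the second lowest for Ntrk2 at 1135 CPM.

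**Figure D4:**
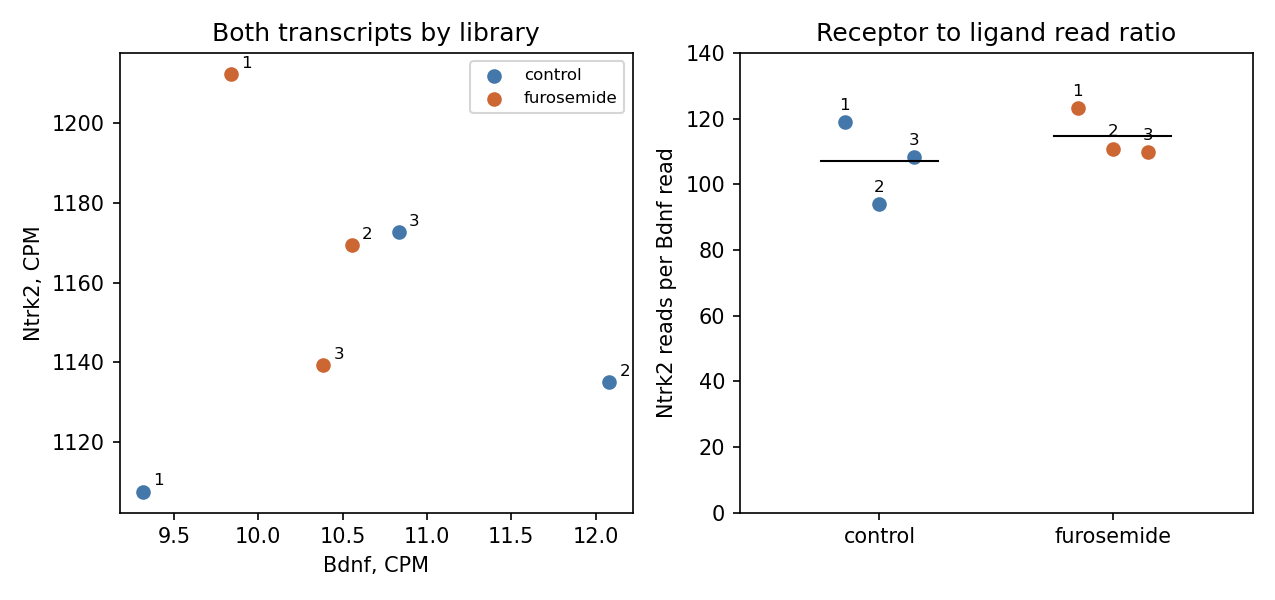
Left, Ntrk2 against Bdnf in CPM for the 6 libraries, numbered by replicate within each group, on axes that do not start at 0. Right, Ntrk2 reads per Bdnf read in each library, with the group mean as a line, at 107 in controls and 115 after furosemide.

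Among the 10655 other genes averaging 10 CPM or more, those whose log2 CPM followed each member most closely over the 6 libraries were listed as a description. For Bdnf they were ENSRNOG00000036667, with r = 0.99 and a mean of 27.4 CPM, and ENSRNOG00000016948, with r = 0.99 and a mean of 21.6 CPM. For Ntrk2 they were ENSRNOG00000048004, with r above 0.99 and a mean of 29.8 CPM, and ENSRNOG00000015271, with r = 0.99 and a mean of 11.9 CPM. The table does not pair them with names. An r above 0.9 was found for 71 of these 10655 genes with Bdnf and for 86 with Ntrk2. Over only 6 libraries, r values this high also arise between unrelated genes, and how many to expect was not tested. The genes listed are therefore not read as partners of either member. None of the 4 passed the threshold, and their edgeR adjusted p-values ran from 0.709 to 0.952.

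The direction of each member was followed through 15 alternative analyses, 9 with other settings and 6 that left out a library. Bdnf stayed between -0.08 and -0.06 on the log2 scale in the 9 other settings, and Ntrk2 between 0.04 and 0.05. Neither gene passed the adjusted threshold in any of the 15. The range came from the omission of libraries, which moved Bdnf from -0.16 to 0.03 and Ntrk2 from 0.02 to 0.07.

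**Figure D5:**
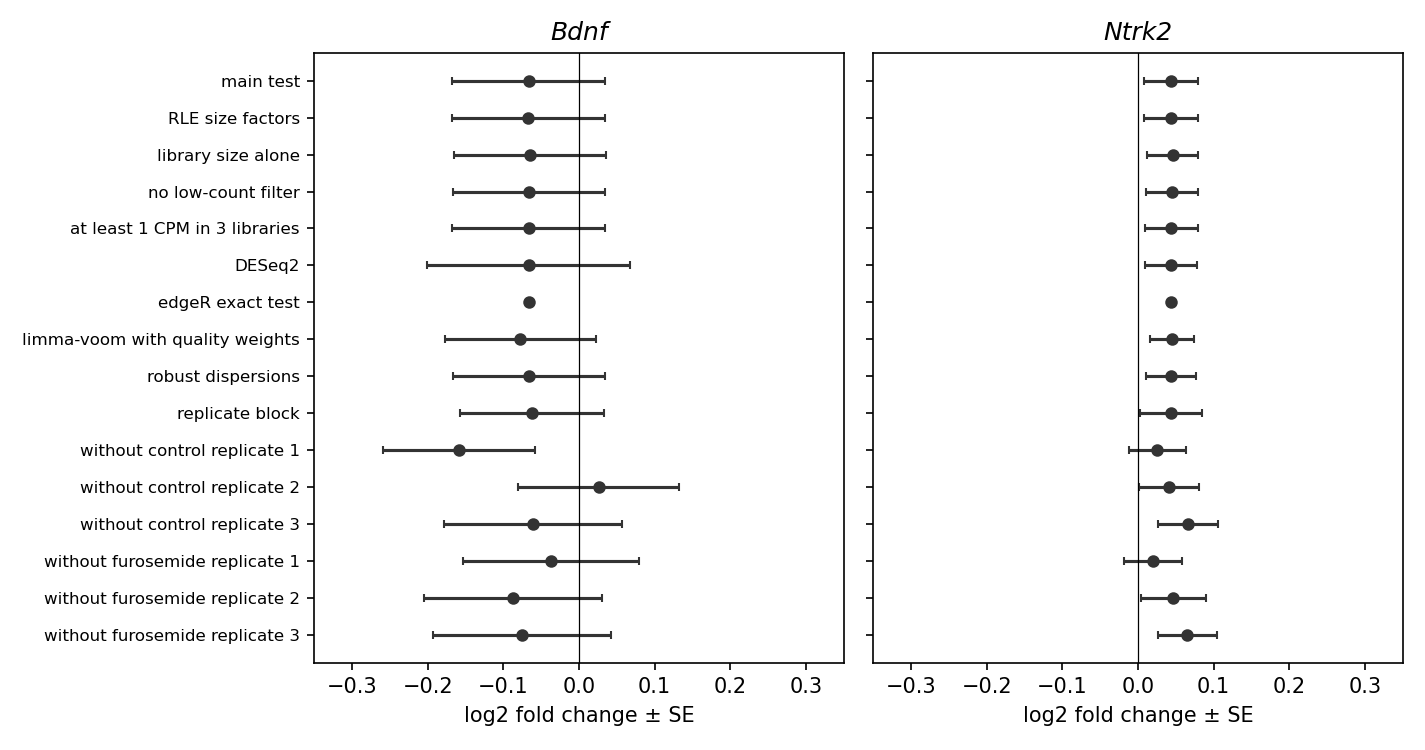
Log2 fold change of furosemide over control with its standard error for Bdnf (left) and Ntrk2 (right) in the main test and in 15 alternative analyses, 1 per line. The exact test gives no standard error. Bdnf lies above 0 only without control replicate 2, and Ntrk2 lies above 0 in every line.

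The depth of all 6 libraries was similar, between 20911950 and 22495415 reads assigned to genes, with TMM factors from 0.994 to 1.01. The 3 furosemide libraries were the 3 deepest, and scaling to CPM removed this from the values above. No library was a copy of another. In every pair the median squared difference over genes with 10 or more reads was at least 1.69 times that of sampling noise alone. The labels do not say on which days the pools were made. Whether day of collection coincided with treatment is therefore not known, and it could not be adjusted for.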

How the data were processed

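The authors deposited whole-number raw counts of reads for 32402 Ensembl identifiers in 6 libraries. Per the submitters' processing notes, the tools were FastQC, TopHat, HTSeq and edgeR. Not given in the sources used here were their settings, the genome build and the annotation. RNA was extracted with QIAzol and RNeasy columns and libraries were made with a TruSeq mRNA kit, per the labels' protocols, so polyadenylated RNA was measured. Strand was not stated, so antisense reads over either gene could not be separated.

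Columns were assigned by group and replicate number. In R 4.3.3, the default filterByExpr setting of edgeR 4.0.16 kept 16344 genes with 99.9% of counts. Library totals were scaled by TMM. Groups were compared by the quasi-likelihood F test in its legacy form (glmQLFit, glmQLFTest), with group as the only term. Adjustment was by Benjamini-Hochberg over all genes tested. The form that is not legacy was not run, in the main test or in the alternatives. Standard errors were the log2 fold change divided by the square root of F. CPM was computed here. Permutation tests used scipy 1.17.1. The fits were tested on simulated data. The counting intervals are exact (Clopper-Pearson) and cover counting error only. Separate pools came from separate rats. The quasi-likelihood p-values set the difference between groups against a spread between pools that is estimated partly from other genes.

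Alternatives were DESeq2 1.42.0, limma-voom with quality weights (limma 3.58.1), the exact test of edgeR, RLE factors, library size alone, no filter, a filter of 1 CPM in 3 libraries, robust dispersions, a replicate block and the omission of each library. For the ratio, 0 or 5 was added to the counts. Genes were named by rule: the 2 members, and the 2 genes with the highest r to each (log2 CPM with a prior count of 2, mean of at least 10 CPM). The rule for the members names identifiers and no measured value, but the members, lists and tests were chosen with earlier results of these data known. The lists of neurotrophin pathway and cell type marker genes were fixed by symbol and were not run, since the reference table used here lists no Ensembl identifiers. The promoter motifs were chosen after the windows had been read. Promoter sequences are from RefSeq, build GRCr8.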

Additional observations from a re-analysis of the deposited data

How the results depend on the processing

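Neither Bdnf nor Ntrk2 passed the adjusted threshold of 0.05 in any of 15 alternatives, with adjusted p from 0.693 to 1 for Bdnf and from 0.717 to 0.999 for Ntrk2. Ntrk2 kept its direction in all 15. Bdnf kept its direction in 14 and reversed without control 2, at 0.026 on the log2 scale. The omission of 1 library gave -0.16 to 0.026 for Bdnf and 0.02 to 0.07 for Ntrk2. The difference in log2 ratio of Ntrk2 to Bdnf was 0.01 to 0.18 with 1 library left out and 0.10 with 0 or 5 added to each count. Pearson's r between the genes across libraries was 0.01 with RLE factors and reversed to -0.13 with library size alone (two-sided exact permutation p = 0.878).

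The count of 0 genes called in the edgeR quasi-likelihood test rose to 28 without a low-count filter and 45 in the edgeR exact test. It rose to 40 in DESeq2, also without that filter but with the default filtering of DESeq2 by mean count. With robust dispersions it was 4 and with the replicate block 1. It was 0 to 17 with 1 library left out, the highest without control 1, and 1 without control 3. The cause was not tested for any of these. With the replicate block the log2 fold change was -0.06 for Bdnf (edgeR adjusted p = 0.923) and 0.04 for Ntrk2 (edgeR adjusted p = 0.861), and the difference in log2 ratio within pairs of equal number was 0.10 (two-sided exact sign-flip permutation p = 0.25, the smallest possible with 3 pairs). The numbers share no stated litter or day, and deviations of libraries with equal numbers correlated at -0.13, -0.01 and -0.03 across genes, so they were not read as pairs. Of the 2 genes Bdnf has fewer reads and the wider interval, from -17.9% to 11.1%. Counting error for it is 6.62% and the control pools varied by 12.9%, and the parts of depth and of differences between pools in the interval were not tested.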
